A study of Mus musculus with 12 samples.

Results

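The genes that write and erase DNA methylation were examined in sorted b cells of neonatal and adult mice: the maintenance writers Dnmt1 and Uhrf1, the de novo writers Dnmt3a and Dnmt3b with their cofactor Dnmt3l, and the erasers Tet1, Tet2 and Tet3. These 8 of 21,757 annotated protein-coding genes were chosen by name, and their loci were taken as the gene body of the GENCODE annotation of mm39 with 10 kb on each side. The loci held 61 of the 87,689 hypomethylated regions (HMRs, stretches of CpGs that are low in methylation against a methylated genome) that the 4 pools of b cells gave after overlapping HMRs were merged. Dnmt3a held 24 of the 61, Tet3 12, Dnmt3b and Tet2 7 each, Tet1 4, Dnmt1 3, and Dnmt3l and Uhrf1 2 each. Of the 61 HMRs, 1 per stage was called different between the subtypes of b cells, beside 1.38% (neonatal) and 0.824% (adult) of all HMRs. Both lay in an intron of Tet1, and neither was called when reads that cover several CpGs were counted less. Methylation rose from neonatal to adult cells at 21 HMRs in eYFP- and 15 in eYFP+ cells, shares near those of all HMRs.

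Methylation was measured by tagmentation-based whole-genome bisulfite sequencing, in which a transposase fragments and tags the DNA and bisulfite then converts unmethylated cytosines. The mice carried Myt1cCre, Ngn3nCre, Rosa26eYFP and InsApple, so that a Cre split between the Myt1 and the Ngn3 genes turns on eYFP in the descendants of cells that expressed both, and Apple marks insulin-producing cells. The 4 groups, all of this genotype, were eYFP- and eYFP+ cells at postnatal day 2 (P2, 2 libraries each) and at postnatal day 60 (P60, 4 libraries each), 12 libraries in all. By the study's methods, at least 3 sorts of 4 to 7 mice were combined per stage and sex. Whether P60 libraries of 1 group and sex share mice is not stated. Replicate 1 at P2 and replicates 1 and 3 at P60 are labelled female, and the others male. The labels give the reporter as eGFP and name both sorted b cells and, as cell type, all islet cells. The study's methods describe eYFP and sorted b cells. The counts of methylated and unmethylated reads were deposited as 1 pool per group and those of single libraries were not used here, so methylation levels have a counting error and no replicate error, and single libraries enter only through the positions of their HMRs. A level averages over the sorted cells, so a change of level within cells and a change in the share of cells cannot be told apart. Age and any batch difference between the stages cannot be told apart either, in levels or in HMR positions.

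Methyl groups are copied onto new DNA strands after replication by Dnmt1, which Uhrf1 brings to CpGs that are methylated on the old strand only. Dnmt3a and Dnmt3b methylate unmethylated CpGs, and Dnmt3l, which has no catalytic activity of its own, stimulates them in germ cells and early embryos. Tet enzymes oxidize the methyl group, the first step of its removal. In b cells Dnmt3a and Dnmt1 are known for keeping immature or non-b-cell genes off. Promoters with many CpGs are usually free of methylation whether or not the gene is transcribed, and methylation alone does not give the level of a transcript.

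The pools had a median of 25 reads per CpG at P2 and of 44 (eYFP-) and 45 (eYFP+) at P60. The promoters of the b-cell regulators Pdx1, Nkx6-1 and Mafa had levels of at most 1.29% in every pool, and those of Ppy, Pecam1, Cdh5, Ptprc and Cd52, markers of PP, endothelial and blood cells, had levels of at least 66.1%. Promoters of Irx2, Hhex, Ptf1a and Sox9, regulators of other pancreatic cell types, were also in HMRs of every pool. Between P2 and P60 the Ins1 promoter went from 28.3% and 35.1% (eYFP- and eYFP+) to 7.87% and 5.74%, and that of the duct marker Krt19 from 17.8% and 15.6% to 48.0% and 44.2%. The part of such shifts in the results was not tested. In the P2 eYFP- group the X-chromosomal HMRs of both libraries went against their sex labels: 91.7% of 253 HMRs typical of male P60 libraries were found in replicate 1, labelled female, and 13.4% in replicate 2, labelled male. All 8 genes are autosomal. The libraries held 57,109 to 60,950 HMRs at P2 and 38,052 to 49,939 at P60.

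The annotated transcripts of the 8 genes began at 44 separate starts, with starts within 500 bp of each other joined, and 43 of them had CpGs within 500 bp. At 9 starts the level was under 10% in all 4 pools, and at 28 it was over 50% in all 4. In the P2 eYFP- pool, 23.3% of the starts were under 10%, beside 28.0% of 55,734 starts of all protein-coding genes. An HMR was present in every one of the 12 libraries at 12 starts and in none at 29. The starts under 10% had CpG ratios (CpGs observed over those their C and G content predicts) between 0.390 and 0.826.

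**Figure D1:**
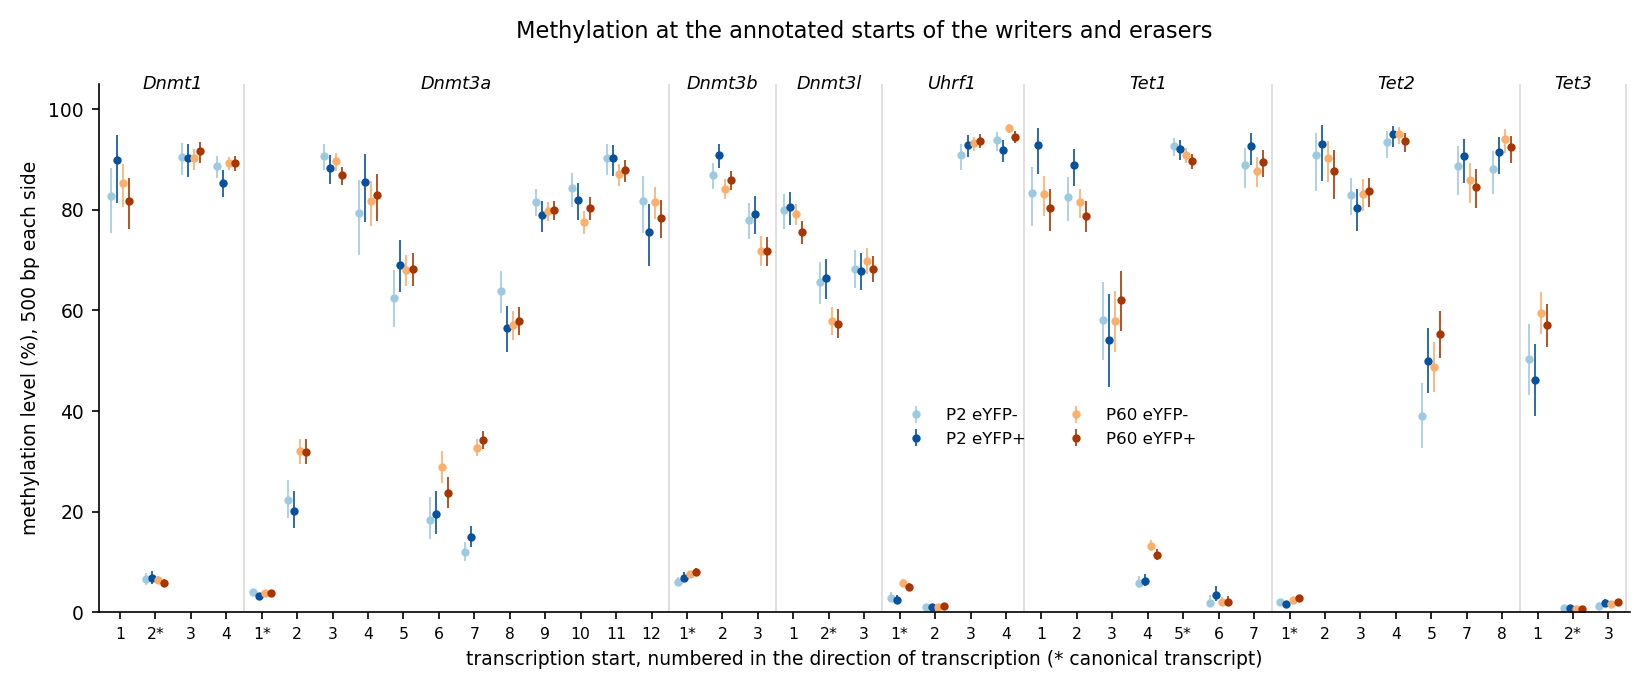
Methylation level (%, vertical axis) within 500 bp of each annotated start of the 8 genes, in the 4 pools (colours), with starts numbered along the gene and an asterisk on that of the canonical transcript. Points are shares of methylated reads and bars 95% Wilson intervals, which cover counting error only. Levels at 9 starts lie under 10% in every pool, and the internal Dnmt3a start 7 is at 11.96% and 14.9% at P2 and at 32.7% and 34.2% at P60.

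An HMR was called different between 2 pools where Fisher's exact test on the reads, adjusted over all HMRs (Benjamini-Hochberg), gave a p under 0.05 and the levels differed by at least 10 percentage points. The test compares pools of reads and not mice, and reads that cover several CpGs are counted at each. From P2 to P60 the level rose at 21 of 61 HMRs in eYFP- cells, where 27.4% of all HMRs were called higher, and fell at 2, where 3.16% of all were called lower. In eYFP+ cells it rose at 15 of 61, where 26.1% of all HMRs were called higher, and at 0 was it called lower (4.09% of all). In either direction, 37 of the 61 had an unadjusted p under 0.05 by Fisher's exact test, beside 47,234 of all 87,266 HMRs tested. The counts of rises are thus near the background. The median change was 5.48 points in eYFP- and 3.46 points in eYFP+ cells, beside 2.84 and 2.29 points over all HMRs. Of the 14 HMRs within 500 bp of a start of their own gene, 3 (21.4%) rose in eYFP- cells, where 9.19% of the HMRs at starts of protein-coding genes were called higher, and 3 in eYFP+ cells, where 8.65% were; all of these are in Dnmt3a. The list of HMRs was made from the same pools, and the comparisons of stages and of subtypes share their pools.

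**Figure D2:**
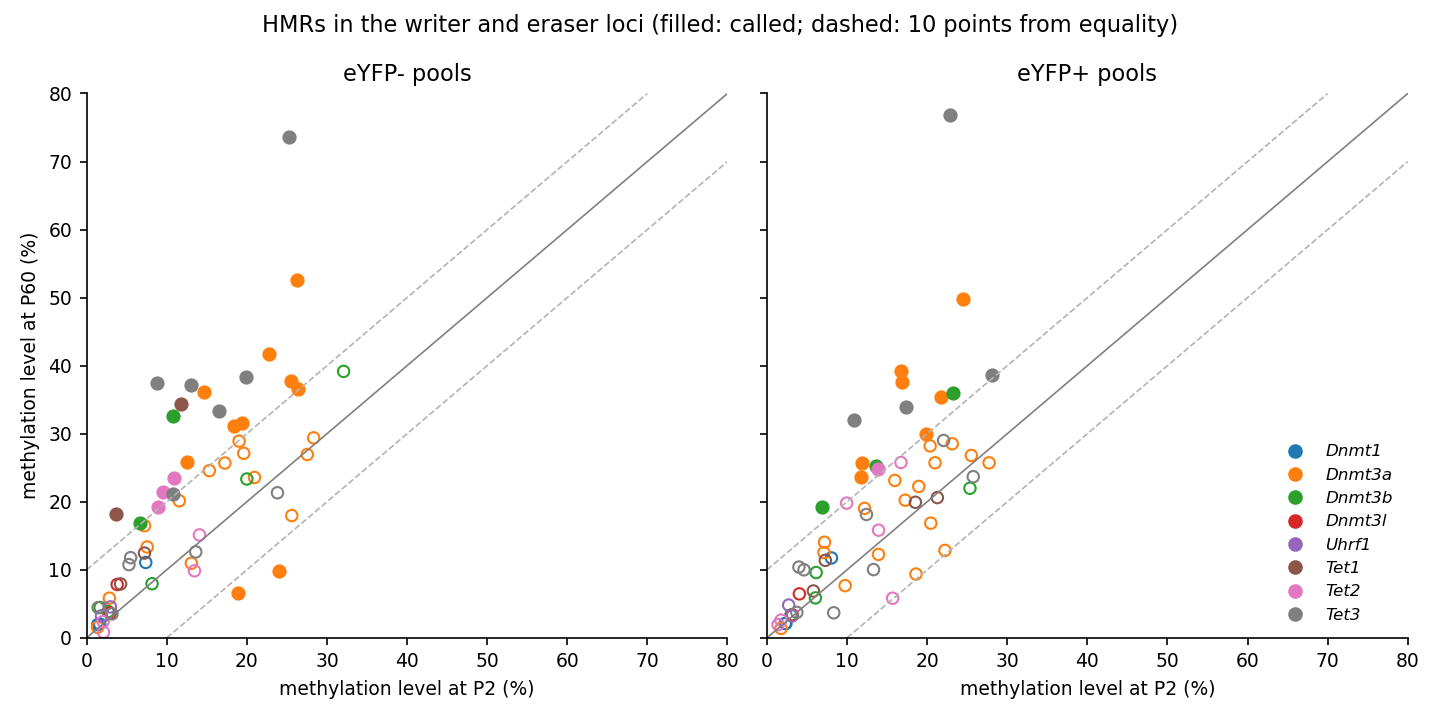
Methylation level of each of the 61 HMRs at P2 (horizontal axis, %) and P60 (vertical axis, %) in the eYFP- pools (left) and eYFP+ pools (right), coloured by gene. Filled points were called different between the stages, the solid line marks equal levels and the dashed lines a difference of 10 points; the highest point in both panels is the intronic Tet3 HMR, at 73.7% and 76.9% at P60.

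The length of each HMR in single libraries gave a second view with replicates. In total the P2 libraries had 55.61 to 58.71 Mb in HMRs and the P60 libraries 42.74 to 46.11 Mb. The bp of each merged HMR that a library's own HMRs cover were compared between the 4 P2 and the 8 P60 libraries with a two-sided exact permutation test, adjusted over all HMRs. Of the 61 HMRs, 14 were shorter at P60, where 16.5% of all HMRs were, and 2 were longer, where 0.528% of all were. The adjusted p was 0.0262 at the smallest p the design allows (0.00404, when all P2 libraries lie on 1 side of all P60 libraries). When each library's covered bp were divided by its total bp in HMRs, 10 of the 61 were shorter and 13 longer. Of all 87,689 HMRs, 8,384 were shorter and 15,773 longer in this setting. Of the 16 calls, 12 were made again in the same direction. Leaving out any of the 4 P2 libraries left no HMR below an adjusted p of 0.05, since the smallest p was then 0.0121. Without both P2 eYFP- libraries the smallest p was 0.0444 and no HMR passed. There, 22 of the 61 and 20,287 of all 87,689 HMRs had an unadjusted p under 0.05 by the permutation test. The eYFP- and eYFP+ libraries of a number may come from the same mice, which the labels do not say. Averaged to 1 value per number (2 at P2, 4 at P60), no HMR could pass, since the smallest p was 0.133. The HMRs come from the same libraries as the pools, so the lengths are not independent of the levels.

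At the 14 HMRs at own starts, the parts that belonged to HMRs of P2 pools only were set beside those still in HMRs of the P60 pools; both were chosen by the HMR calls, so their levels are a description. The 22 stretches lost from HMRs held 1.74 CpGs per 100 bp and the 16 that were kept 5.81. In the lost stretches the level over all reads was 22.7% and 23.8% at P2 (eYFP- and eYFP+) and 45.9% and 43.4% at P60. In the kept stretches it was 1.93% and 2.22% at P2 and 2.53% and 2.35% at P60. The pattern was not the same in every HMR: that of Dnmt3a at chr12:3934152 lost stretches from its interior, and the downstream promoter HMR of Tet3 lost none. HMRs at own starts kept a median of 72.0% of their P2 length in P60 libraries, beside 93.6% over 17,142 HMRs at starts of all protein-coding genes. The low median came from Dnmt3a: its 6 HMRs at starts kept a median of 17.2%, and the 8 of the other genes 91.7%.

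Dnmt1, the maintenance methyltransferase, had 1 unmethylated promoter in all groups. The main group of starts (chr9:20863901-20864574, 23 of its transcripts) met an HMR at chr9:20862741-20864411, with 9 of the 23 starts inside it, that spans exon 1 and the beginning of intron 1. Its 88 CpGs had levels of 1.63% (95% interval 1.16 to 2.28), 2.36%, 2.04% and 2.10% in the P2 eYFP-, P2 eYFP+, P60 eYFP- and P60 eYFP+ pools, and no pair of pools compared differed after adjustment. The HMR covered 1562 to 1671 bp in each P2 and each P60 library, so the libraries overlapped. The upstream start of Dnmt1-202 at position 20871184 lay in no HMR of any library, and the 4 CpGs around it had levels of 82.8% and 89.9% at P2 and of 85.4% and 81.8% at P60. The 200 bases around both starts are shown for their contrast in CpGs, in the direction of transcription (minus strand, mm39) with CpGs in capitals. They are chr9:20871085-20871284 with 1 CpG and chr9:20864138-20864337 with 15 CpGs, where the level was between 0.321% and 0.622% in the 4 pools.
Dnmt1 upstream start: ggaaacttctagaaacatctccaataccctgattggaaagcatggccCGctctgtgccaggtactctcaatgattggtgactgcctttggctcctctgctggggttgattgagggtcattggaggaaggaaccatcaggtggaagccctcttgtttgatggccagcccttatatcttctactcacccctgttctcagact
Dnmt1 main start: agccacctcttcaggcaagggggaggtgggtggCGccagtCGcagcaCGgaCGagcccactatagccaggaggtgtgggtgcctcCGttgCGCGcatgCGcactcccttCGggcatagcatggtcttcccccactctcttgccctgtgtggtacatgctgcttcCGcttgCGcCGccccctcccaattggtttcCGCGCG

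The remaining 2 HMRs of the Dnmt1 locus lay downstream of the gene, 1 of them at the start of Eif3g, a translation initiation factor gene. Its level was between 1.39% and 2.28% in the 4 pools. Neither was called in any comparison.

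Uhrf1, which recognizes CpGs methylated on 1 strand, kept an unmethylated promoter whose HMR became shorter. Of its 4 starts, 2 lay in an HMR at chr17:56609564-56611981 over exon 1, part of intron 1 and the sequence upstream, and the other 2, farther downstream, were at 90.8% or more in every pool and in no HMR of any library. The HMR covered 2212 bp and 2418 bp in the P2 eYFP- libraries and 2418 bp in both P2 eYFP+ libraries. At P60 it covered 1548, 1654, 1748 and 1654 bp in the eYFP- and 1748, 1654, 1654 and 1748 bp in the eYFP+ libraries. Every P60 library was thus below every P2 library (1676 ± 69.6 bp, SD, n = 8, against 2366 ± 103 bp, n = 4; exact permutation test, adjusted p = 0.0262). The 121 CpGs of the 1654 bp middle stayed between 1.08% and 1.23% in the 4 pools. The 11 CpGs of the 640 bp lost upstream of it were at 20.7% and 16.7% at P2 and at 36.0% and 34.6% at P60. Over the whole HMR the level was 2.96% and 2.71% at P2 and 4.55% and 4.82% at P60, a difference that passed the adjusted test in both subtypes (Fisher's exact test, adjusted p = 0.000334 and 1.39e-06) at a size of 1.58 and 2.11 points, under the 10 points of a call. The other HMR of the locus lay at the start of the neighbouring Kdm4b, at 1.85% to 3.24%.

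Dnmt3a, the de novo methyltransferase best studied in b cells, combined a stable main promoter with an internal promoter that gained methylation. The main starts lay in an HMR at chr12:3855900-3859773 with 312 CpGs, which held levels of 1.36%, 1.75%, 1.55% and 1.37% in the 4 pools. It covered 3646 to 3874 bp in the P2 and 3402 to 3646 bp in the P60 libraries, and the groups touched at 3646 bp. The shorter Dnmt3a2 isoform is known to start from a promoter inside the gene, and the annotation places the start of Dnmt3a-204 in intron 6 at chr12:3941728. An HMR at chr12:3941135-3942479 with 61 CpGs surrounded that start. Its level was 14.6% (12.8 to 16.6) and 16.9% (14.98 to 19.0) in the P2 eYFP- and eYFP+ pools and 36.2% (34.6 to 37.8) and 37.6% (36.0 to 39.2) at P60. It rose by 21.6 ± 1.26 points (SE) in eYFP- cells and by 20.7 ± 1.33 points in eYFP+ cells (Fisher's exact test, adjusted p = 3.78e-50 and 3.75e-43), and the intervals of the stages did not overlap.

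In single libraries the internal HMR covered 1305 and 1294 bp at P2 in eYFP- and 1305 and 1340 bp in eYFP+ cells. At P60 it covered 95, 158, 380 and 293 bp in eYFP- and 279, 249, 274 and 158 bp in eYFP+ cells. All P60 libraries lay below all P2 libraries (235.8 ± 92.2 bp, SD, n = 8, against 1311 ± 20.02 bp, n = 4; exact permutation test, adjusted p = 0.0262). The sequences of the stretch still in an HMR at P60 and of the 300 bases before it are given next, because they had like CpG content and unlike levels: both are from the plus strand of mm39, with CpGs in capitals, at chr12:3941532-3941810 (18 CpGs) and chr12:3941232-3941531 (17 CpGs). In the stretch that held the start the level was 7.07% and 4.83% at P2 and 15.3% and 14.8% at P60. In the 300 bases before it the level was 13.1% (9.72 to 17.4) and 19.3% (15.3 to 23.9) at P2 and 42.8% (39.7 to 45.9) and 42.9% (39.8 to 46.1) at P60.
Dnmt3a internal start: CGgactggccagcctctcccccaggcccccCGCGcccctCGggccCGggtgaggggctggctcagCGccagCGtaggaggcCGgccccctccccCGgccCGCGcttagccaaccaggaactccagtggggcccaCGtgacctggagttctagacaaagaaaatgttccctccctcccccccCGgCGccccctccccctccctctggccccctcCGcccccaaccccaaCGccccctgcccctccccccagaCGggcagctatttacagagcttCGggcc
Dnmt3a before the internal start: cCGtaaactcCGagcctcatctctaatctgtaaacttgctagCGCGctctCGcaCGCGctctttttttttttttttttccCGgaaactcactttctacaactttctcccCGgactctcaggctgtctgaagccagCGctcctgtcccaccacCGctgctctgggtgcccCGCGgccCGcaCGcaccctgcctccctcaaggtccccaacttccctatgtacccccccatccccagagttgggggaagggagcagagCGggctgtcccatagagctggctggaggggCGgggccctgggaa

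The HMRs beside the internal start moved the same way. The 1 before it (chr12:3939656-3941058, intron 6) went from 25.5% and 21.7% to 37.7% and 35.4%, and it was present in all 4 P2 libraries (1007 to 1403 bp) and in none of the 8 P60 libraries. The 1 after it (chr12:3942684-3943206, intron 6) went from 26.3% and 24.5% to 52.6% and 49.8%, the largest rise of the locus, and was present in 3 of 4 P2 libraries and no P60 library. Farther upstream in intron 6, an HMR of 4121 bp that holds the start of Dnmt3a-212 went from 15.3% and 19.0% to 24.6% and 22.2% and was not called. It covered 2873 to 4121 bp in P2 libraries and 709 to 2201 bp in P60 libraries, which did not overlap (exact permutation test, adjusted p = 0.0262).

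Of the other Dnmt3a starts, that of Dnmt3a-220 in exon 2 and intron 1 (HMR at chr12:3883874-3885255) rose from 19.4% and 19.8% to 31.6% and 29.9% (Fisher's exact test, adjusted p = 5.00e-09 and 2.44e-06). Its HMR covered 1342 to 1382 bp in the P2 libraries and 0 to 222 bp in the P60 libraries, with no overlap. In intron 4, 3 HMRs rose in both subtypes and were absent from every P60 library; the 1 with the largest change (chr12:3921218-3921392) went from 22.8% and 16.8% to 41.8% and 39.2%. The HMR at chr12:3916344-3916978 was among them, at 18.4% and 11.9% at P2 and 31.1% and 25.8% at P60, while the 500 bp on each side of the nearest start, just upstream of it, were at 62.5%, 69.1%, 68.0% and 68.2% in the 4 pools. The HMR beside the starts of Dnmt3a-208 and Dnmt3a-216 (chr12:3944129-3944785) was at 19.0% and 25.5% at P2 and at 28.9% and 26.8% at P60 and was not called.

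Intron 2 of Dnmt3a held the 2 called falls of the 61 HMRs. When reads that cover several CpGs were counted less, 1 fall was called in eYFP- cells. The HMR at chr12:3887115-3888035 went from 24.01% (20.1 to 28.4) to 9.81% (7.85 to 12.2) in eYFP- cells, a call, and from 22.2% to 12.9% in eYFP+ cells, where the change of 9.38 ± 2.70 points fell short of 10. It was present in 1 of 4 P2 libraries, at 285 bp, and in all 8 P60 libraries, at 621 to 921 bp. A smaller one at chr12:3891139-3891472 with 4 CpGs went from 18.9% to 6.57% in eYFP- cells, and no single library had an HMR there. In intron 1 an HMR at chr12:3869105-3869715 was longer at P60 (546 to 603 bp against 100 to 499 bp; exact permutation test, adjusted p = 0.0262), with levels of 25.6% and 20.4% at P2 and of 18.0% and 16.9% at P60, which were not called. HMRs in intron 1 at chr12:3860460-3862379 (911 to 1920 bp at P2, 0 to 935 bp at P60; exact permutation test, adjusted p = 0.0475, and 0.0898 when lengths were divided by each library's total) and downstream of the gene at chr12:3967800-3968232 (350 to 433 bp at P2, 0 to 297 bp at P60; adjusted p = 0.0262) were shorter at P60 and not called by level.

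Dnmt3b, the other catalytically active de novo methyltransferase of the 8 genes, had an unmethylated promoter in all pools. Its HMR at chr2:153490759-153492761 (138 CpGs, exon 1 and part of intron 1) was at 2.67% and 2.98% at P2 and at 3.87% and 3.35% at P60. It covered 1790 to 2003 bp in P2 and 1718 to 1778 bp in P60 libraries (exact permutation test, adjusted p = 0.0262), a direction that turned when the lengths were divided by each library's total. Changes past 10 points lay outside the promoter. An HMR near the upstream end of the window (chr2:153481228-153481349, 5 CpGs) went from 10.8% and 13.6% to 32.6% and 25.3%, without an HMR in any single library. In intron 1 an HMR at chr2:153499429-153499943 (10 CpGs) went from 6.67% and 6.90% to 16.9% and 19.2%, and covered 289 to 515 bp at P2 and 0 to 434 bp at P60, with overlap. Another upstream of the gene (chr2:153484492-153485211) was called in eYFP+ cells, from 23.3% to 35.9%, and not in eYFP- cells, at 32.1% and 39.2%.

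Dnmt3l, the cofactor without catalytic activity, had no HMR at any of its 3 starts in any library. Around the canonical start (chr10:77885676-77885768) the level was 65.6% and 66.4% at P2 and 57.9% and 57.4% at P60. The HMRs in the window lay at the starts of its neighbours Aire and Icosl, with levels of 3.81% to 7.84% and 2.92% to 3.65%.

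Tet1 held both HMRs that were called between the subtypes. The HMR that covers the starts of Tet1-207 and Tet1-210 (chr10:62721232-62723455, 112 CpGs, upstream of the canonical transcript) was at 4.23% and 5.80% at P2 and at 7.92% and 6.89% at P60. The start that the annotation names canonical, at position 62715793, lay in no HMR and was at 92.7%, 92.1%, 90.9% and 89.7% in the 4 pools. A further start, that of Tet1-202 at position 62701083 in an HMR over exon 2, was at 1.95% to 3.42%. The 200 bases around the unmethylated and the methylated start are shown to compare them, along the gene (minus strand, mm39), with CpGs in capitals. They are chr10:62723098-62723297 with 12 CpGs, at 5.25% and 6.74% at P2 and 12.7% and 9.93% at P60, and chr10:62715694-62715893 with 5 CpGs, at 91.1% or more in the 4 pools.
Tet1 upstream start: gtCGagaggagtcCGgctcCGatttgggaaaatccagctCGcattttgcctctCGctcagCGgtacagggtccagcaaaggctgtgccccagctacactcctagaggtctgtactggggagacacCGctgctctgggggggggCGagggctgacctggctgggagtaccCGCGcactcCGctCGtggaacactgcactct
Tet1 canonical start: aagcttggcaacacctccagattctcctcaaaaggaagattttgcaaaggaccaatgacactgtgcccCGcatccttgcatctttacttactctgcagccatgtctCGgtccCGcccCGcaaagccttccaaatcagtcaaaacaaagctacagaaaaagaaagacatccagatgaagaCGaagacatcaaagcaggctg

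Between the subtypes, 1 of the 61 HMRs was called at P2, where 1.38% of all HMRs were called in either direction, and 1 at P60, where 0.824% were. The HMR called at P2 lay in intron 2 of Tet1 at chr10:62677864-62678288 (9 CpGs). Its level was 3.70% (1.961 to 6.89, 243 reads) in eYFP- and 18.5% (14.1 to 24.03, 232 reads) in eYFP+ cells, a difference of 14.8 ± 2.82 points (SE; Fisher's exact test, adjusted p = 0.000102). At P60 the same HMR was at 18.2% and 19.9%. It was covered whole (425 bp) in both P2 eYFP- libraries and in P2 eYFP+ replicate 1, and not at all in P2 eYFP+ replicate 2. At P60 eYFP- replicates 2 and 4, both labelled male, had it, over 358 and 413 bp. The other 6 libraries did not, those of eYFP+ cells labelled male included. The library labelled P2 eYFP+ replicate 2, a male label, is thus the only one at P2 without it. The part of sex was not tested.

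The HMR called at P60 lay closer to exon 2, in intron 2 at chr10:62699644-62699991 (8 CpGs). There eYFP- cells were at 34.4% (29.8 to 39.2, 390 reads) and eYFP+ cells at 20.6% (16.8 to 25.1, 359 reads), lower by 13.7 ± 3.22 points in eYFP+ (Fisher's exact test, adjusted p = 0.00521). At P2 the order was the other way, 11.8% (8.16 to 16.7) in eYFP- and 21.3% (16.4 to 27.1) in eYFP+ cells, which was not called (Fisher's exact test, adjusted p = 0.160). Both P2 eYFP- libraries and P2 eYFP+ replicate 1 covered it whole (348 bp) and P2 eYFP+ replicate 2 not at all. Of the P60 libraries only eYFP+ replicate 4 had an HMR there, of 228 bp. Neither call was made when the reads of each HMR were divided by its mean number of CpGs per read before the test, a setting under which no HMR of the genome passed both criteria between the subtypes.

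The change from P2 to P60 differed between the subtypes at 3 of the 61 HMRs by a test of the difference itself (Wald test on log odds, adjusted over all HMRs), beside 1.12% of all HMRs, and all 3 were in Tet1. At the HMR called at P60 it was 22.6 points in eYFP- and -0.654 points in eYFP+ cells (n = 221 reads in the smallest pool, adjusted p = 0.00346). At the HMR called at P2 it was 14.5 and 1.39 points (n = 232 reads in the smallest pool, adjusted p = 0.0144), and at the upstream start 3.69 and 1.09 points (adjusted p = 0.0425). With reads divided by CpGs per read the unadjusted p were 0.0144, 0.0248 and 0.197, and none passed. The 133 bases at the 3′ end of the HMR called at P60 were in an HMR of the P60 eYFP+ pool and in none of the P60 eYFP- pool. Their sequence is shown because of this difference in HMR calls (chr10:62699644-62699776, minus strand, mm39, CpGs in capitals). In it the level was 4.14% and 12.4% at P2 and 24.5% and 13.5% at P60. The pools also differed over the whole HMR at P60, at 34.4% and 20.6%.
Tet1 intron 2: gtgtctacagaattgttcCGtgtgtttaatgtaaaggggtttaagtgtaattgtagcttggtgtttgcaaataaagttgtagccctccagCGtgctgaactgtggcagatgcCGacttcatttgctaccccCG

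**Figure D3:**
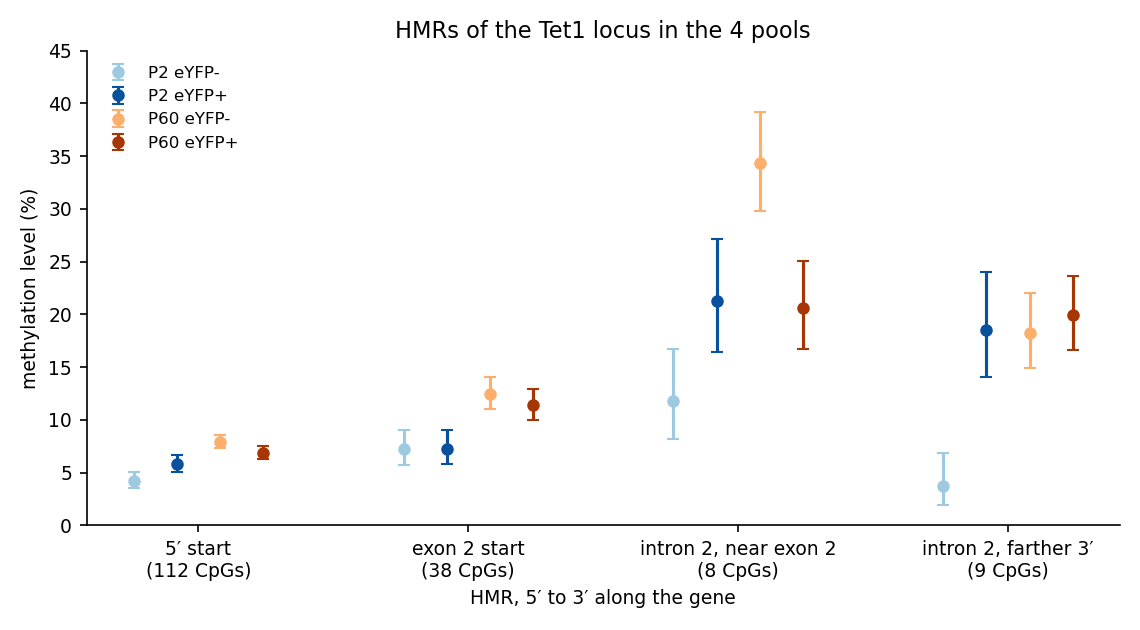
Methylation level (%, vertical axis) of the 4 HMRs of the Tet1 locus, in order along the gene, in the 4 pools (colours), with 95% Wilson intervals that cover counting error only. In the HMR of intron 2 near exon 2, P60 eYFP- cells (34.4%) lie above the other pools, and in the one farther 3′, P2 eYFP- cells (3.70%) lie below the others.

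In single libraries, none of the 61 HMRs differed in length between the subtypes. At P60 (4 against 4 libraries, two-sided exact permutation test, smallest possible p 0.0286) none of the 61 had an unadjusted p up to 0.05, beside 0.51% of all HMRs. At P2, 2 against 2 libraries cannot give a p below 0.333.

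Regions inside an HMR of 1 subtype's pool and outside those of the other, with at least 50 bp and 2 CpGs that differ, were taken as differentially methylated regions (DMRs). They are small and untested here, and they rest on the pools. At P2 the loci of Dnmt3a and Tet1 held a DMR, 2 of 8 genes, where 14.2% of protein-coding genes had one within 10 kb. At P60 they were again the loci of Dnmt3a and Tet1, where 8.28% of protein-coding genes had one. The Dnmt3a gene is 108,437 bp long and Tet1 104,427 bp, beside a median of 19.2 kb over protein-coding genes; Tet3, of 96,712 bp, and Tet2, of 81,465 bp, held no DMR. The part of gene length was not tested.

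The DMR of Dnmt3a at P2 (chr12:3875898-3875975, intron 1, 5 CpGs) was lower in eYFP+ cells, at 21.3% (15.6 to 28.2) beside 34.9% (28.1 to 42.4). Both P2 eYFP+ libraries had an HMR over its whole 78 bp and neither eYFP- library did, and at P60 no library did. At P60 the pools there were at 26.6% in eYFP- and 33.2% in eYFP+ cells. Of the DMRs of Dnmt3a at P60, both lower in eYFP+ cells, 1 in intron 4 (chr12:3921745-3921853) was at 31.1% in eYFP- and 21.9% in eYFP+ cells, with an HMR in eYFP+ replicate 4 alone. The other, downstream of the gene (chr12:3971571-3971668), was at 21.0% and 14.9% with an HMR in no P60 library. In Tet1, the P2 DMRs were lower in eYFP- cells: the whole HMR near exon 2, and the 3′ edge of the HMR at the upstream start (chr10:62721232-62721399), at 24.5% (18.4 to 31.9) and 38.1% (31.1 to 45.6). That edge was in an HMR over 168 and 58 bp in the P2 eYFP- libraries and over 168 and 0 bp in the eYFP+ libraries.

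Tet2, an eraser, had 1 unmethylated promoter, and its 3 HMRs with a called rise lay in intron 1. The promoter HMR (chr3:133248445-133251300, 158 CpGs) was at 2.06% and 1.75% at P2 and at 2.40% and 2.596% at P60. It covered 2812 to 2856 bp in P2 and 2709 to 2812 bp in P60 libraries (exact permutation test, adjusted p = 0.0475), a direction that turned when lengths were divided by each library's total. In intron 1 an HMR at chr3:133227987-133228340 rose in both subtypes, from 9.52% and 13.8% to 21.4% and 24.7%. Those at chr3:133230365-133231118 and chr3:133238032-133238097 rose in eYFP- cells, from 10.9% to 23.5% and from 8.90% to 19.2%. In eYFP+ cells they were at 16.7% and 9.94% at P2 and at 25.8% and 19.8% at P60, which was not called. An intron 2 HMR (chr3:133202642-133202954) was covered whole in all 12 libraries, at 0.822% to 2.11%.

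Tet3, a further eraser, held the HMR with the largest rise of the 61. This HMR (chr6:83430528-83430846, intron 2, 9 CpGs) went from 25.2% (20.1 to 31.1) to 73.7% (70.1 to 77.0) in eYFP- and from 22.8% (18.2 to 28.3) to 76.9% (73.0 to 80.4) in eYFP+ cells. These rises were 48.5 ± 3.32 and 54.1 ± 3.20 points (SE; Fisher's exact test, adjusted p = 1.84e-36 and 6.03e-46). In single libraries the HMR was found in P2 eYFP- replicate 1 (296 bp) and P2 eYFP+ replicate 2 (319 bp) and in none of the other 10, so that lengths did not separate the stages (exact permutation test, adjusted p = 0.425). Its central 300 bases are given as the sequence with the widest gain (chr6:83430538-83430837, minus strand, mm39, 7 CpGs in capitals); their level went from 23.9% and 23.7% to 74.8% and 80.5%.
Tet3 intron 2: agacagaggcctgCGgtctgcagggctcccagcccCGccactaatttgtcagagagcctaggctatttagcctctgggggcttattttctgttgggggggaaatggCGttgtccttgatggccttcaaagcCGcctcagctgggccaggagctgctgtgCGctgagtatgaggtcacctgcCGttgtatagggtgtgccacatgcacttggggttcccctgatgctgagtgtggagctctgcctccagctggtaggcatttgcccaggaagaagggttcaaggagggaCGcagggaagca

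In intron 3 of Tet3, an HMR at chr6:83386979-83387888 went from 8.79% (6.12 to 12.5) and 10.9% (8.10 to 14.6) to 37.5% (34.1 to 41.0) and 31.97% (28.8 to 35.3). It covered 910 and 815 bp in the P2 eYFP- and 815 and 910 bp in the P2 eYFP+ libraries, and no P60 library had it (exact permutation test, adjusted p = 0.0262). The HMR at chr6:83398730-83399550 went from 13.1% and 17.3% to 37.2% and 33.9%, was present in all P2 libraries (537 to 821 bp) and absent from all P60 libraries. The same held at chr6:83427501-83428976 in intron 2, with 19.9% and 28.1% at P2 and 38.3% and 38.6% at P60 and 573 to 1476 bp in P2 libraries. A shorter one, at chr6:83420446-83421115 in intron 2, covered 670 bp in each P2 and 558 bp in each P60 library, a direction that turned when lengths were divided by each library's total; its level was 5.48% and 3.99% at P2 and 11.8% and 10.4% at P60.

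Of the promoter HMRs of Tet3, the upstream one became shorter. The HMR at the canonical start (chr6:83432043-83435501, 204 CpGs) covered 2739 and 3200 bp in the P2 eYFP- and 3459 and 3154 bp in the P2 eYFP+ libraries. At P60 it covered 1958 bp in 7 of 8 libraries and 2197 bp in eYFP- replicate 3, all below the P2 libraries (1988 ± 84.5 bp, SD, n = 8, against 3138 ± 298 bp, n = 4; exact permutation test, adjusted p = 0.0262). Its level was 5.28% (4.67 to 5.96) and 4.62% (4.02 to 5.31) at P2 and 10.8% (10.2 to 11.3) in eYFP- and between 9.47% and 10.6% (interval) in eYFP+ cells at P60, a rise of 5.49 and 5.38 points that passed the adjusted test and not the 10 points of a call. The middle of 1958 bp with 174 CpGs stayed between 1.11% and 1.81%. The lost part of 1196 bp upstream of it (25 CpGs) went from 21.4% and 16.2% to 53.9% and 49.6%. The downstream promoter HMR (chr6:83416877-83419300, 87 CpGs), at the starts of Tet3-201, Tet3-202 and Tet3-205, was at 3.17%, 3.73%, 3.52% and 3.74%, and its length overlapped between the stages (1822 to 2424 bp).

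**Figure D4:**
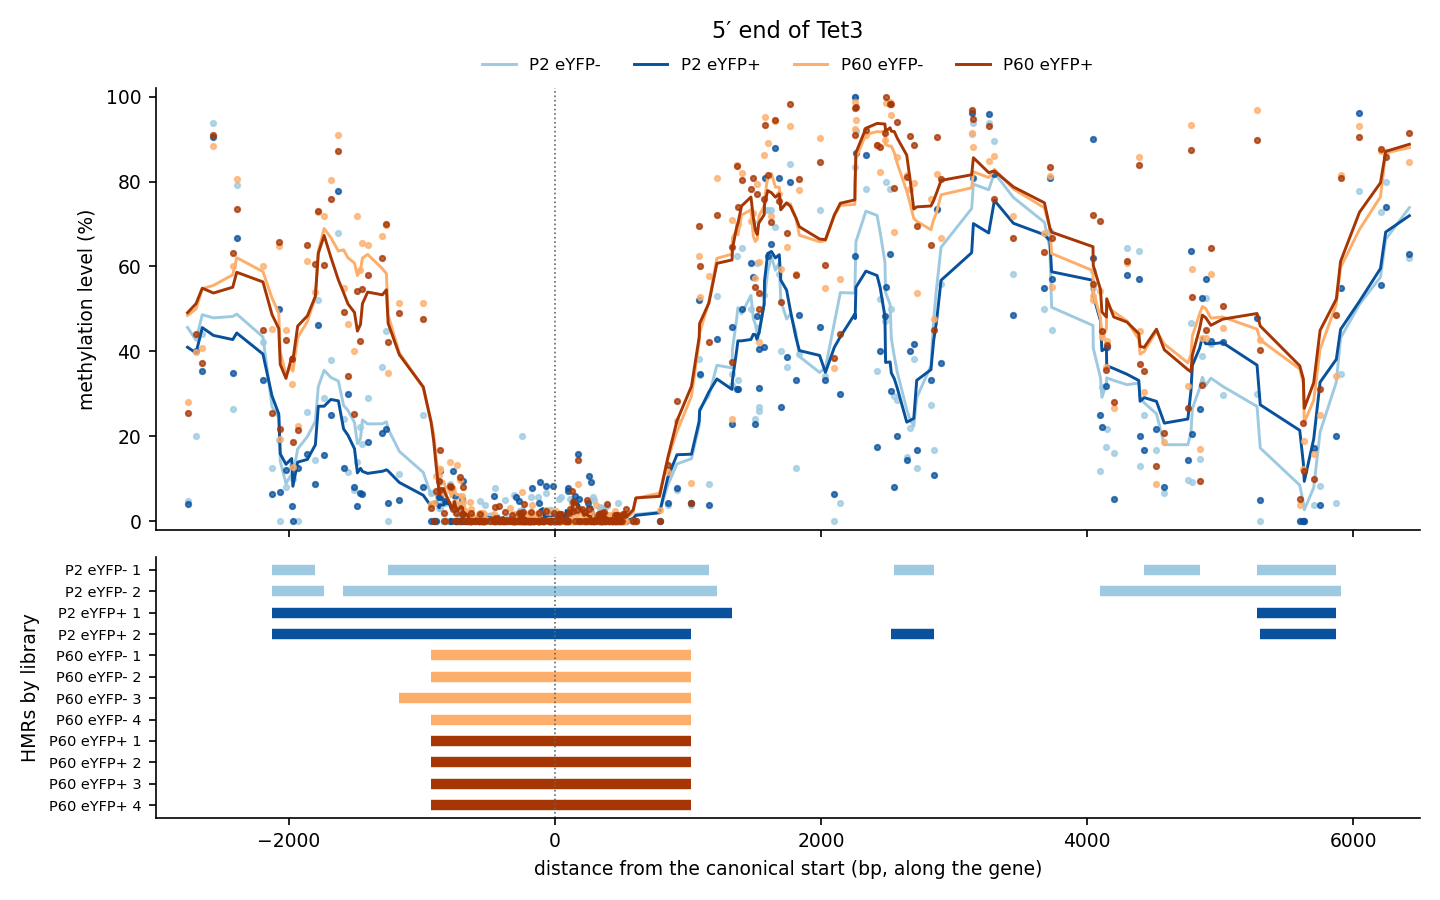
Methylation level (%) of single CpGs with at least 5 reads (points) and over 7 neighbouring CpGs (lines) at the 5′ end of Tet3, by distance along the gene from the canonical start (bp), in the 4 pools, above the HMRs of each of the 12 libraries (bars). Around the start all lines lie near 0, while upstream of it the P60 lines lie above the P2 lines and the HMR ends nearer to the start in all P60 libraries, and within the plotted range the HMRs of intron 2 seen in P2 libraries are missing at P60.

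Some of the rises from P2 to P60 did not hold when the reads of each HMR were divided by its mean number of CpGs per read. Under this setting 12 rises were called in eYFP- cells and 9 in eYFP+ cells, against 21 and 15, and 1 fall in eYFP- cells, against 2. Those not called included the rises of Dnmt3a at chr12:3921218 in both subtypes and at chr12:3916344 in eYFP- cells, of Dnmt3b at chr2:153481228 and chr2:153499429 in both subtypes and at chr2:153484492 in eYFP+ cells, and of Tet2 at chr3:133227987 in both subtypes and at chr3:133238032 in eYFP- cells. Of the other HMRs put to this setting, the rises at the internal Dnmt3a start, at chr12:3883874 and chr12:3942684, and at the Tet3 HMRs at chr6:83430528, chr6:83386979 and chr6:83398730 held in both subtypes.

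Outside HMRs the gene bodies were mostly methylated, although single starts in no HMR had levels near 50%, such as Tet2 start 5 at 38.99% to 55.2%. The median level over the 8 genes was 80.6%, 80.7%, 81.6% and 81.1% in the 4 pools, beside 78.0%, 78.6%, 79.0% and 78.4% over 20,663 protein-coding genes. From P2 to P60 the gene body of Uhrf1 rose by 5.57 points in eYFP- and 4.46 points in eYFP+ cells, and that of Tet3 by 4.59 and 3.10 points. That of Dnmt3l changed by -4.35 and -4.67 points. All 8 changes lay inside the 5th to 95th percentile of all genes, -8.42 to 5.80 points in eYFP- and -10.1 to 5.01 points in eYFP+ cells. No test was run on these levels.

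The genes that work with the writers and erasers (readers of methylated CpGs, CXXC proteins, the glycosylase Tdg, and enzymes of methyl donor and 2-oxoglutarate supply) were taken as a list of 27, with 112 HMRs in their loci. Dnmt3c, which lies beside Dnmt3b, is on this list. The HMRs at chr2:153529499 and chr2:153535353 lie in both loci and are counted in the 61 and in the 112. In eYFP- cells 25 of the 112 rose and 4 fell from P2 to P60 (27.4% and 3.16% of all HMRs), and in eYFP+ cells 26 rose and 4 fell (26.1% and 4.09% of all), counts near the background. Genes with at least 1 rise numbered 14 of 27 in each subtype. The same share over all protein-coding genes was not computed, so this count has no background. It also depends on the HMRs per locus, such as 11 for Mbd2 and 1 for Hells. Among the largest changes called in both subtypes were those in the locus of Mbd4, a thymine glycosylase that binds methylated CpGs (24.03% and 23.9% to 60.7% and 58.6%), of Zbtb38, a reader of methylated DNA (13.8% to 46.4% in eYFP+ cells), and of the CXXC protein gene Cxxc5 (24.1% and 19.6% to 53.2% and 50.6%). Between the subtypes 1 of the 112 was called at P2 (1.38% of all HMRs), at a start of Idh2, which makes 2-oxoglutarate in mitochondria. Its level was 20.2% in eYFP- and 38.3% in eYFP+ cells (Fisher's exact test, adjusted p = 0.0270). At P60 none was called. An unadjusted p under 0.05 by Fisher's exact test was found there at 17 of the 112, beside 12,439 of all 87,481 HMRs tested.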

How the data were processed

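Whole-genome bisulfite data of 12 libraries of sorted b cells were used. According to the study's methods and the submitters' processing notes, the authors trimmed the reads (Trim Galore 0.6.6 with cutadapt 1.16; FastQC and SAMtools 1.5 are also named), mapped them to mm39 with abismal and ran MethPipe; the versions of the latter are not given in the sources used here. The values used are the methylated and unmethylated read counts per CpG that the authors deposited for 1 pool per group, with strands merged, and the positions of HMRs deposited for pools and libraries. The deposited candidate DMRs, with the authors' own comparison, were not used, and DMRs were rebuilt from counts and HMRs. Pool B1 was taken as eYFP- and B2 as eYFP+: libraries held the HMRs unique to the pool of their own label in 26.0% and 31.7% of cases at P2, beside 6.0% and 6.6% for the other label, and in 13.5% and 14.5%, beside 5.1% and 5.9%, at P60.

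HMRs of the 4 pools were merged where they overlap, and a level is the share of methylated reads over all CpGs of a region, with a 95% Wilson interval, which covers counting error only because neighbouring CpGs share reads and PCR copies are not independent molecules. Groups came from the sample labels. Two-sided tests were used, Fisher's exact test for the reads of pools and an exact permutation test for the bp of an HMR in libraries (scipy 1.17.1, numpy 2.4.6, Python 3.11.15), adjusted over all HMRs by Benjamini-Hochberg; the scripts were tested on simulated counts. Whether the libraries of a group came from separate mice beyond their pools is not stated, so these p measure the spread between libraries. Genes and starts came from GENCODE M39, and sequences from the mm39 genome (pysam 0.24.0).

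Named were all 8 genes and their starts, every DMR of the loci, every HMR called between subtypes, and of those called between stages the 3 per gene with the largest mean change; HMRs with a longer or shorter length in libraries, the falls and further Dnmt3a, Tet2 and Tet3 HMRs were added after their values were seen. Of the partner list at most 4 HMRs were named, with any called between subtypes. 1 result of that list is not reported here. The genes and lists were chosen with earlier results of these data known. Depth was a median of 25 to 45 reads per CpG and pool. Alternatives were a minimum of 10 reads per CpG, reads divided by CpGs per read of 150 bp, 15 points for a call, HMRs of at least 200 bp, other windows, mean CpG levels, presence or scaled length of HMRs, and leaving out libraries.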

Additional observations from a re-analysis of the deposited data

Results flagged for a closer look

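The change from P2 to P60 differed between the subtypes at 3 HMRs of Tet1 by a test of the difference itself. The change in eYFP+ minus that in eYFP- cells was -23.25 points at chr10:62699644 in intron 2, -13.11 points at chr10:62677864 in the same intron, and -2.6 points at the upstream start, chr10:62721232.

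In 12 of the 54 groups of 4 P60 libraries looked at, 1 library stood apart from the other 3 in the length of an HMR, where chance gives about 1 in 20. HMR ends fall on CpGs, so libraries often share an end exactly and small gaps stand out. Among eYFP- libraries, these were replicate 1 at the promoters of Dnmt1 (1632 bp), Dnmt3a (3402 bp) and Tet1 (1878 bp), replicate 2 at the Dnmt3a HMR at chr12:3944129 (162 bp, with 0 bp in the others), and replicate 3 at the Tet3 promoter (2197 bp) and the Dnmt3b HMR at chr2:153499429 (345 bp). Replicate 4 stood apart at the Dnmt3b promoter (1776 bp). Among eYFP+ libraries, they were replicate 4 at the Tet1 HMR at chr10:62699644 (228 bp, with 0 bp in the others) and at the Tet2 HMR at chr3:133227987 (294 bp, with 0 bp in the others). Replicate 2 stood apart at the Tet1 exon 2 HMR (1721 bp), and replicate 3 at the Tet2 HMR at chr3:133230365 (0 bp) and at the Tet2 promoter (2812 bp).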

How the results depend on the processing

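With reads divided by CpGs per read, 0 HMRs of the 8 loci were called between subtypes at P2 and 0 at P60, and 13 (eYFP-) and 9 (eYFP+) between stages; over all HMRs the counts went from 1199 and 721 to 0 and 0, and from 26,694 and 26,316 to 16,798 and 16,178. At 15 points for a call they were 0, 0, 10 and 6, with 622 and 267 of all HMRs between subtypes. With HMRs of at least 200 bp, 444 of all HMRs were called at P60, and with mean CpG levels 470. In windows of 50 kb, 25 HMRs were called between stages in eYFP+ cells. As presence or absence, 0 of the 61 HMRs and 0 of all differed between the stages in single libraries, against 16 and 14,908 by length. Scaled by total length, 24,157 of all were called. Leaving out 1 library gave 0 (each P2 library) to 17 (P60 eYFP+ replicate 3), and leaving out both P2 eYFP- libraries, or averaging the eYFP- and eYFP+ libraries of a number (both chosen after seeing the data), 0 and 0. DMRs of the loci numbered 0 (P2) and 0 (P60) with 3 differing CpGs, 1 and 0 at 200 bp, and 7 at P2 within 50 kb; all DMRs went from 4090 and 2365 to 1076 and 662 with 3 CpGs and to 2699 and 1178 at 200 bp. The median gene body level in P2 eYFP- cells was 62.6% with HMRs included, against 80.56%. Stricter thresholds, fewer effective reads and larger windows lower or raise these counts by construction, and the cause of the other shifts was not tested. Of the other alternatives, 53 gave a count or level near the main one. They include the tests of library lengths between subtypes, most of which could not give a p under 0.05. The 0 of those was fixed in advance and does not speak to stability. HMR by HMR, the alternatives were run for those at own starts, those called between subtypes and the 3 per gene with the largest change between stages. No called level difference of these changed direction. The falls, the other HMRs added later and those of the partner list were not put to the alternatives singly.

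Libraries with the same replicate number did not deviate together in every pair (correlations of 0.1441, 0.1017, 0.1572 and 0.0999 at P60, each the best of its number, and -0.0116 at P2). With a replicate block, 0 HMRs differed between the subtypes at either stage. The smallest p that the exact permutation test with this block allowed was 0.125 at P60 and 0.5 at P2. No HMR could pass, so this 0 was fixed in advance and says nothing about a difference between the subtypes. Depth limits HMRs of few CpGs: the SE of the P2 difference was 2.82 points at the intronic Tet1 HMR with 9 CpGs.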
